A study of Rattus norvegicus with 16 samples.

Results

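Transcript levels of 8 erythroid and megakaryocytic transcription factor genes, Gata1, Klf1, Tal1, Nfe2, Gfi1b, Zfpm1, Lmo2 and Gata2, were examined in whole blood of 16 rats. The 8 genes were fixed by name and taken by symbol from 18031 genes that all 16 deposited files list, and where a symbol had several entries the entry with the highest total was used. All 16 animals were male Sprague-Dawley rats from Charles River, 85 to 90 days old, and formed 1 group, named control 1 to control 16 here. Each rat received 4 injections of normal saline at 1 ml/kg, spaced 2 h apart, was killed 3 h after the last one, and was bled by cardiac puncture. No treated or uninjected animals were analysed here, so every comparison is between saline controls. The paper describes saline controls from an experiment repeated at several dates, and the labels do not give the date of each rat. Each library came from 1 rat, and the p-values measure the spread between rats, which can include differences between dates.

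Blood lineage identity is set in the bone marrow by small groups of transcription factors that bind regulatory DNA together. Gata1 is the GATA factor of red cell and platelet precursors, Zfpm1 (FOG1) is its cofactor, and Klf1 is a zinc finger activator of red cell genes that reads CACCC elements. Tal1 is a basic helix-loop-helix factor that joins GATA factors in a complex bridged by Lmo2. Nfe2 is the large subunit of a dimer with small Maf proteins and is needed for platelet release, Gfi1b is a transcriptional repressor that acts within both lineages, and Gata2 acts in progenitors, mast cells and basophils. Circulating reticulocytes and platelets lack a nucleus and carry RNA made earlier in the marrow.

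The libraries held 21466776 to 31189549 estimated read counts each, of which globin genes took 2.65% to 14.7%. Codes in the deposited file names, lettered A to F here, split the libraries into sets of 3 (A, controls 1 to 3), 5 (B, controls 4, 5, 7, 8 and 10), 2 (C, controls 6 and 9), 4 (D, controls 11 to 14), 1 (E, control 15) and 1 (F, control 16). The labels do not say what the codes stand for. The samples carried the transcripts of the labelled tissue: Alas2, the first heme synthesis enzyme of red cells, averaged 290280 normalized counts and the platelet chemokine Pf4 averaged 33518. Several libraries stood apart. Summed liver markers were 572400 normalized counts in control 2 against a median of 13668, summed platelet markers were 14413 in control 10 against a median of 90465, and summed cardiac muscle markers were 546 in control 10 against a median of 22.9.

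The DNA just upstream of the genes is shown for 4 members, because the factors bind GATA and CACCC letters and several members moved together. RefSeq (GRCr8) gave a promoter window for 6 of the 8 members: Gata1, Klf1, Tal1, Gfi1b, Zfpm1 and Gata2. The 250 bases before the annotated start were searched on both strands for AGATAA or TGATAA and for CACCC. The reverse of TGATAA can run into CACCC and share letters with it, which happened in none of these windows. Capitals mark the matches, and each sequence is written 5′ to 3′ on the strand of its gene. The windows were chr19:40158652-40158901 (minus strand) for Klf1, chr3:32350902-32351151 (minus) for Gfi1b, chrX:17201387-17201636 (plus) for Gata1 and chr5:133824214-133824463 (plus) for Tal1.
Klf1: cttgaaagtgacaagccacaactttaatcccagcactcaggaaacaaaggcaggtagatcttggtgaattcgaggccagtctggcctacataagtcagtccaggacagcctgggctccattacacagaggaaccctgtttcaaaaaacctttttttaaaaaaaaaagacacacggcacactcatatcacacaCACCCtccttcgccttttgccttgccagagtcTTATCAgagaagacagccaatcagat
Gfi1b: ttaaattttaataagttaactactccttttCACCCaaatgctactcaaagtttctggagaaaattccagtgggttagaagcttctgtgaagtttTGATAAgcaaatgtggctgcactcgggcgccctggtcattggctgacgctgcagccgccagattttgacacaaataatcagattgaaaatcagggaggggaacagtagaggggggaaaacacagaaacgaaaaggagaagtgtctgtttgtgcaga
Gata1: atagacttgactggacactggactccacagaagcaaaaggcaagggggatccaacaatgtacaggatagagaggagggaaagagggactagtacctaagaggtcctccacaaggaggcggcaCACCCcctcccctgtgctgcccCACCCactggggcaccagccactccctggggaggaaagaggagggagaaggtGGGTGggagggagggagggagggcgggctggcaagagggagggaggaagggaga
Tal1: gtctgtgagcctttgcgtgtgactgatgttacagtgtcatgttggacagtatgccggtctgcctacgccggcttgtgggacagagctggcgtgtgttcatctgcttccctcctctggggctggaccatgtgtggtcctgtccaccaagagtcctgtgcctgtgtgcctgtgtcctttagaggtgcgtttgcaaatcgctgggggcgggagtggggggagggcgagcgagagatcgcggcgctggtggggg
The GATA letters occurred in 2 of the 6 members searched, Klf1 with its match beginning 26 bases before the start and Gfi1b with its match beginning 156 bases before it. Over all 33469 RefSeq promoter windows of that length 16.9% held them. CACCC occurred in 5 of the 6 members, all except Tal1, and in 49.2% of all windows. A match is a description of the letters and not a bound site.

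Gata1, the GATA factor, had a mean of 3381 ± 1456 normalized counts (SD, n = 16). Its lowest value was 1709.8 in control 3, its median 2769 and its highest value 6504.3 in control 10. Klf1, the CACCC reader, averaged 6209.6 ± 2686 normalized counts, with 3014 in control 3, a median of 5705 and 11540 in control 10. By normalized count both genes were highest in the same 3 rats, controls 10, 5 and 8, and both were lowest in control 3. This order depends on the scaling, because normalized counts are divided by a size factor that was smallest in control 10 (0.642). Its 4178 Gata1 counts came from a library of 25161155, beside 4946 from 25961719 in control 6. Its 7413 Klf1 counts stood beside 9224 from 27644039 in control 5. Zfpm1, the Gata1 cofactor, averaged 1248 ± 472, ran from 608 in control 2 over a median of 1182 to 2339.9 in control 10, and was also low in control 3 at 664. Normalized counts are not divided by transcript length, so the levels were compared between rats and not between genes.

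Nfe2, the large subunit of the Maf dimer, averaged 20921 ± 7977 normalized counts (SD, n = 16). It ran from 11305 in control 3 over a median of 18441 to 33793 in control 10 and 39442 in control 8. Gfi1b, the repressor, averaged 2360.4 ± 935 normalized counts, with a median of 2473 and a highest value of 4239 in control 10. Its lowest value was 492 in control 9, and the next lowest was 1495 in control 12. Control 9 therefore stood below all other rats for this gene, and it also had the lowest value of 7 of the 21 erythroid marker genes.

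Tal1, the helix-loop-helix factor, averaged 1886 ± 913 normalized counts (SD, n = 16). Its highest values were 3611 in control 16 and 3383 in control 8, and its median was 1722. Control 10, the rat with the highest normalized counts of Gata1, Klf1, Gfi1b and Zfpm1, had the lowest Tal1, 219.5 normalized counts from 141 reads. The next lowest Tal1 was 838 in control 12. The lead of control 10 in the other genes depends on the scaling. Before scaling it had 2723 counts of Gfi1b and 1503 of Zfpm1, beside 2762 of Gfi1b in control 4 and 2140 of Zfpm1 in control 6. The range from highest to lowest was 16.4-fold for Tal1 and 3.80-fold for Gata1. Lmo2, the bridging protein, averaged 1322 ± 283 and ran from 809.8 in control 11 over a median of 1312 to 1766 in control 5, a 2.18-fold range. Gata2 averaged 55.2 ± 61.3 normalized counts. It ran from 7.49 in control 7, where 6 reads were counted, over a median of 30.6 to 121 in control 1 and 251 in control 11.

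**Figure D1:**
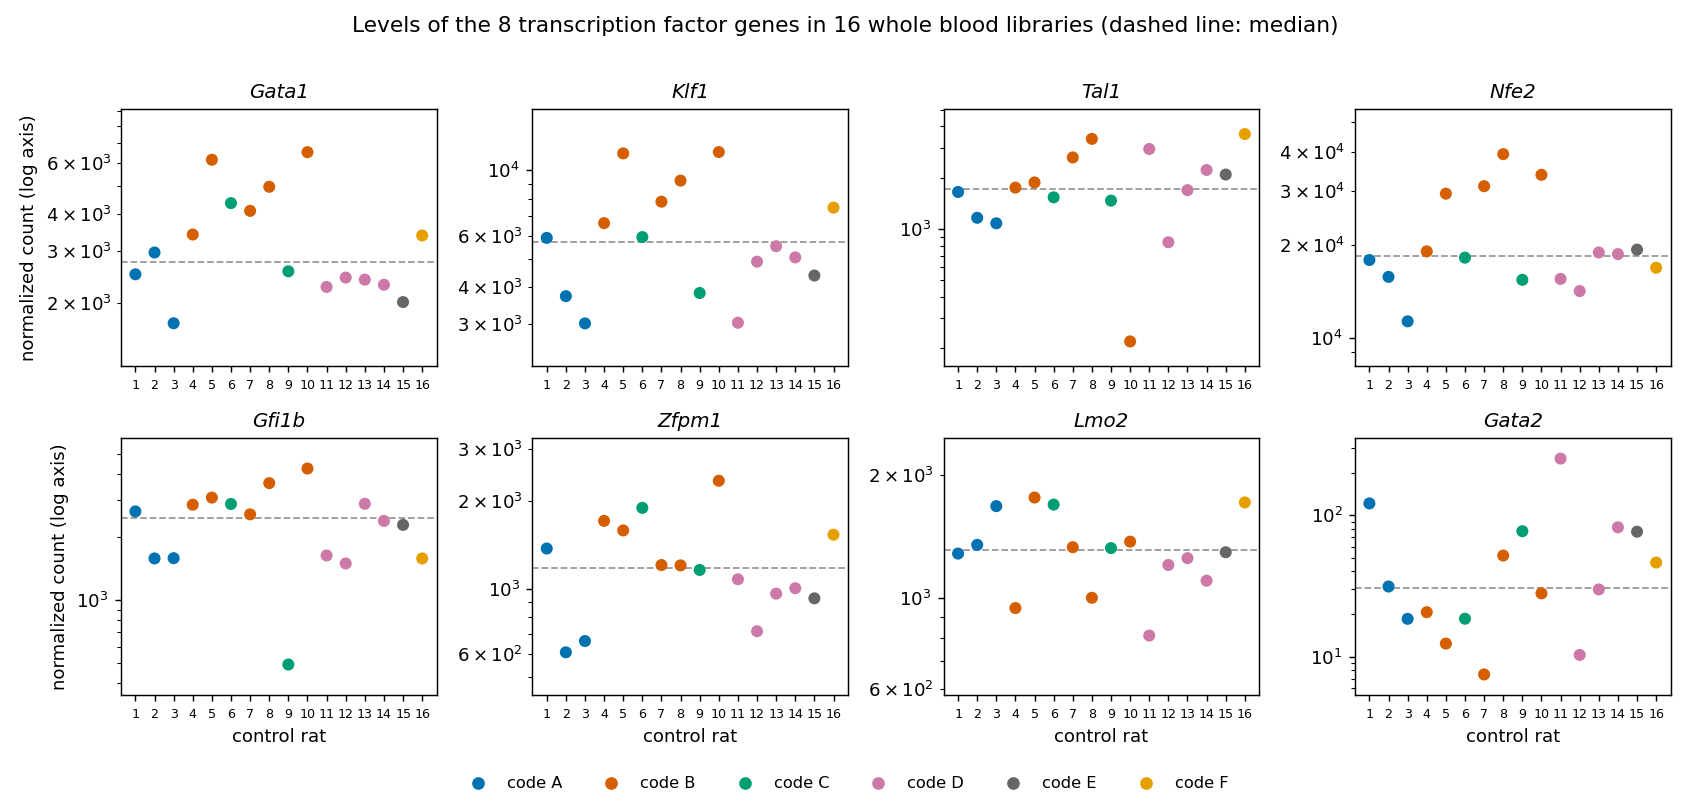
Normalized counts of the 8 genes in each of the 16 control rats, 1 panel per gene with its own logarithmic axis, coloured by file-name code, with a dashed line at the median. Tal1 in control 10 (219.5), Gfi1b in control 9 (492) and Gata2 in control 11 (251) lie away from the other rats, while Gata1 and Klf1 are highest in controls 10, 5 and 8.

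The spread between rats exceeded counting error for all 8 genes. The coefficient of variation was 43.1% for Gata1, 43.3% for Klf1, 48.4% for Tal1, 38.1% for Nfe2, 39.6% for Gfi1b, 37.8% for Zfpm1, 21.4% for Lmo2 and 111% for Gata2, while counting error alone gave 0.705% for Nfe2 to 12.8% for Gata2. Among 8672 genes with a mean of at least 100 normalized counts the median was 24.8%, with quartiles of 18.4% and 36.8%. Lmo2 was thus the member nearest to a typical gene, with 37.6% of those genes varying less, against 86.4% for Tal1. Leaving out the extreme rat gave 41.4% for Tal1 (without control 10), 33.0% for Gfi1b (without control 9) and 78.9% for Gata2 (without control 11). Scaling by total count lowered the values of Gata1 to 25.4%, of Klf1 to 26.2% and of Nfe2 to 18.9%, where the median of the same 8672 genes became 31.6%.

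Gata1 was the only member with a second entry of the same symbol. The entry used, ENSRNOG00000025534, was the larger one in every rat, and the other, ENSRNOG00000047663, averaged 1843 ± 800.3 normalized counts (SD, n = 16). The other entry held 28.8% to 40.6% of the sum of both, with a median of 35.5%. The levels of the entries had r = 0.94 across the 16 rats. How the estimation divided reads between them was not tested, so the level of Gata1 is uncertain, and its slopes are given for both.

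**Figure D2:**
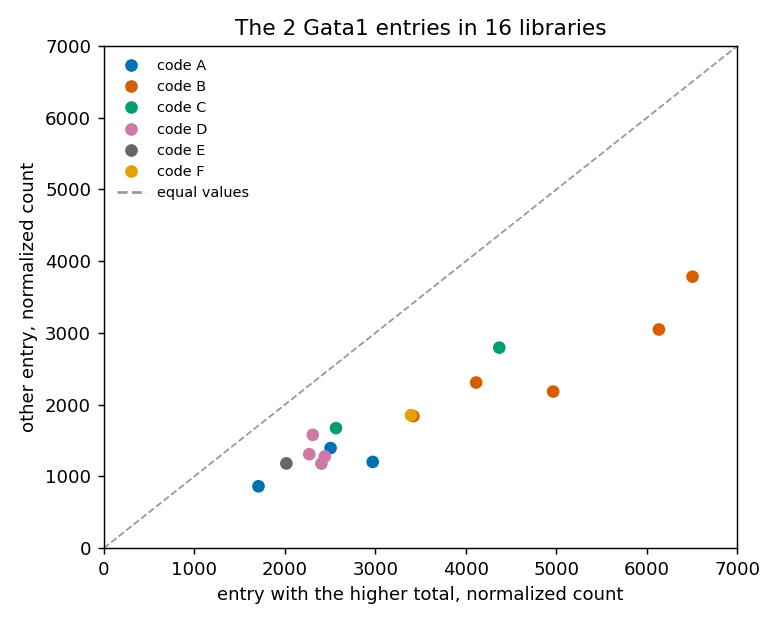
Normalized counts of both Gata1 entries in each of the 16 control rats, with the entry used on the horizontal axis, the other entry on the vertical axis and a dashed line of equal values. All points lie below the line, and the other entry holds 28.8% to 40.6% of the sum.

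To learn which members varied with red cell transcripts, each gene was fitted against an erythroid level, the mean log2 level of 21 red cell genes that include no member. The slope is the log2 change of a gene per log2 unit of that level, so that a slope of 1 means change in proportion. Klf1 rose with a slope of 0.94 ± 0.12 (SE; adjusted p = 0.00015) and Gata1 with 0.90 ± 0.11 (adjusted p = 0.0001) in edgeR's quasi-likelihood test. Nfe2 followed at 0.69 ± 0.14 (adjusted p = 0.0038) and Zfpm1 at 0.67 ± 0.17 (adjusted p = 0.018). The other Gata1 entry gave 0.85 ± 0.13 (adjusted p = 0.00044). With Gata1, Klf1, Nfe2 and Zfpm1, 4 of the 8 members were called, where 798 of 12952 genes (6.16%) were called in the same direction. Gfi1b had a slope of 0.77 ± 0.22 that did not pass (adjusted p = 0.052) but was called with DESeq2's size factors (adjusted p = 0.032), by DESeq2 itself (adjusted p = 0.0056) and with the single-group filter (adjusted p = 0.039). Lmo2 (0.13 ± 0.15), Tal1 (-0.11 ± 0.39) and Gata2 (-1.52 ± 0.51, adjusted p = 0.11) were not called either. In bulk blood, fewer cells of a type and less RNA per cell cannot be told apart.

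The erythroid calls held without single libraries for Gata1 (slopes of 0.86 to 0.95), Klf1 (0.90 to 1.01) and Nfe2 (0.61 to 0.76). Zfpm1 lost its call without control 10 (0.58, adjusted p = 0.16), and Gfi1b gained one without control 9 (0.61, adjusted p = 0.024), control 13 (0.84, adjusted p = 0.026) or control 14 (0.82, adjusted p = 0.048). The file-name code moved with the erythroid level: its log2 level was 12.48 to 13.18 in code B, 11.66 to 12.14 in code A and 11.41 to 11.78 in code D. With the code as a term, edgeR called 0 genes of any kind (552 at an unadjusted p under 0.05), the slope of Klf1 was 1.00 (adjusted p = 0.39), that of Gata1 0.81 (adjusted p = 0.62), that of Zfpm1 0.78 and that of Nfe2 0.42. Scaling by total count was applied to the genes only, and the level kept its median-of-ratios size factors. It moved the median slope of all genes from -0.08 to -0.47 and turned 798 positive and 9 negative calls into 286 and 2901. Relative to that median, Gata1 (0.99), Klf1 (1.01), Zfpm1 (0.78) and Nfe2 (0.75) remained above the typical gene, and of these Gata1 and Klf1 kept their calls. Gata2 was called below 0 under that scaling (-1.90, adjusted p = 0.027), by DESeq2 (-1.48, adjusted p = 0.038) and by edgeR without control 12 (-1.65, adjusted p = 0.045).

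The log2 levels were also correlated with the erythroid level. Gata1 had r = 0.92 with the erythroid level (rho = 0.87; permutation p = 1e-05, the smallest that the permutations can give, and 4e-05; adjusted over all genes 0.0012 and 0.0074). Klf1 had r = 0.91 (rho = 0.91), Nfe2 0.81 (rho = 0.80), Zfpm1 0.74 (rho = 0.71) and Gfi1b 0.70 (rho = 0.76), with permutation p of 1e-05, 0.00012, 0.0012 and 0.0013 for r (adjusted 0.0012, 0.0044, 0.025 and 0.025). For rho the adjusted p were 0.004, 0.019, 0.06 and 0.032 in the same order, so that Zfpm1 did not pass by rank. After centring within codes r was 0.79 for Gata1, 0.84 for Klf1, 0.49 for Nfe2, 0.61 for Zfpm1 and 0.83 for Gfi1b. Leaving out controls 10 and 5, whose level was most extreme, gave r of 0.86, 0.84, 0.72, 0.62 and 0.63 in that order. These are among 40 relations of 8 members with 5 levels. In each of them the gene and the level were divided by the same size factors, so that the scaling enters both sides.

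**Figure D3:**
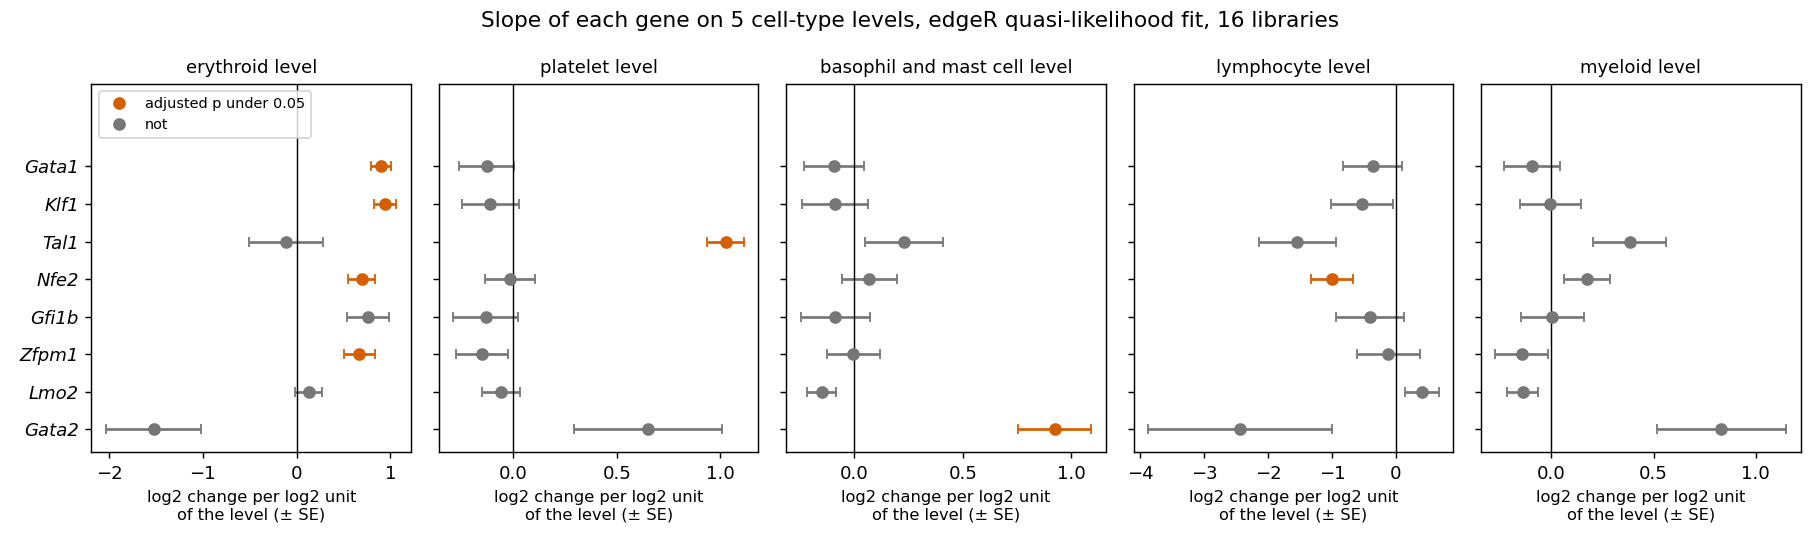
Slope of each of the 8 genes on 5 cell-type levels, as log2 change per log2 unit of the level with its standard error, from edgeR fits over 16 libraries, where orange marks an adjusted p under 0.05. Gata1, Klf1, Nfe2 and Zfpm1 are called on the erythroid level, Tal1 on the platelet level, Gata2 on the basophil and mast cell level and Nfe2, below 0, on the lymphocyte level.

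Tal1 was the member called on the level of platelet transcripts. The platelet level was the mean log2 level of 21 platelet genes such as Pf4 and Itga2b, the fibrinogen receptor subunit, and the slope of Tal1 on it was 1.03 ± 0.09 (SE; edgeR adjusted p = 2.5e-06). Tal1 was 1 of 8 members called, where 425 of 12952 genes (3.28%) were called in that direction. The slopes of Gata1 (-0.13 ± 0.13), Klf1 (-0.11 ± 0.14), Nfe2 (-0.02 ± 0.12), Gfi1b (-0.13 ± 0.16), Zfpm1 (-0.15 ± 0.13) and Lmo2 (-0.06 ± 0.09) had adjusted p of 0.50 or more, and that of Gata2, 0.65 ± 0.36, had 0.31. Tal1 had r = 0.97 with the platelet level (rho = 0.89; permutation p = 1e-05 for both, adjusted 0.0011 and 0.0032), 0.97 within codes and 0.88 without controls 10 and 12. With the code as a term the Tal1 slope was 1.02 (adjusted p = 0.00035).

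Control 10 carried much of this contrast. It had the lowest value of 20 of the 21 platelet genes, the lowest platelet level (7.70, next 9.27 in control 12) and the highest erythroid level (13.18). Without it Tal1 kept its slope on the platelet level, at 0.92 (adjusted p = 0.00054). The log2 ratios of Tal1 to each other member were also tested against the platelet level, a comparison chosen after the slopes were seen. The slope of Tal1 exceeded that of Gata1 by 1.13 (permutation p = 0.001), that of Klf1 by 1.13 (p = 0.00062), that of Nfe2 by 1.03 (p = 0.00054), that of Gfi1b by 1.15 (p = 0.0013), that of Zfpm1 by 1.13 (p = 0.00027) and that of Lmo2 by 1.10 (p = 1e-05), unadjusted over these 7 comparisons. Against Gata2 the difference of 0.53 did not pass (p = 0.20). Without control 10 the differences were 0.59 for Gata1, 0.61 for Klf1, 0.49 for Nfe2, 0.67 for Gfi1b, 0.62 for Zfpm1, 1.05 for Lmo2 and -0.12 for Gata2, with unadjusted permutation p of 0.036, 0.025, 0.022, 0.051, 0.0072, 0.00021 and 0.84 in that order. The slope of Tal1 log2 levels on the erythroid level changed sign, from -0.41 in 16 rats to 0.36 without control 10. Slopes of log2 levels on the platelet level also changed sign without control 10 for Gata1 (-0.10 to 0.34), Klf1 (-0.10 to 0.32) and Nfe2 (-0.002 to 0.43). The same held for Gfi1b (-0.12 to 0.26) and Zfpm1 (-0.10 to 0.31), but not for Lmo2 (-0.07 to -0.13) or Gata2 (0.50 to 1.05). In edgeR without control 10, Tal1 remained the only member called on the platelet level.

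**Figure D4:**
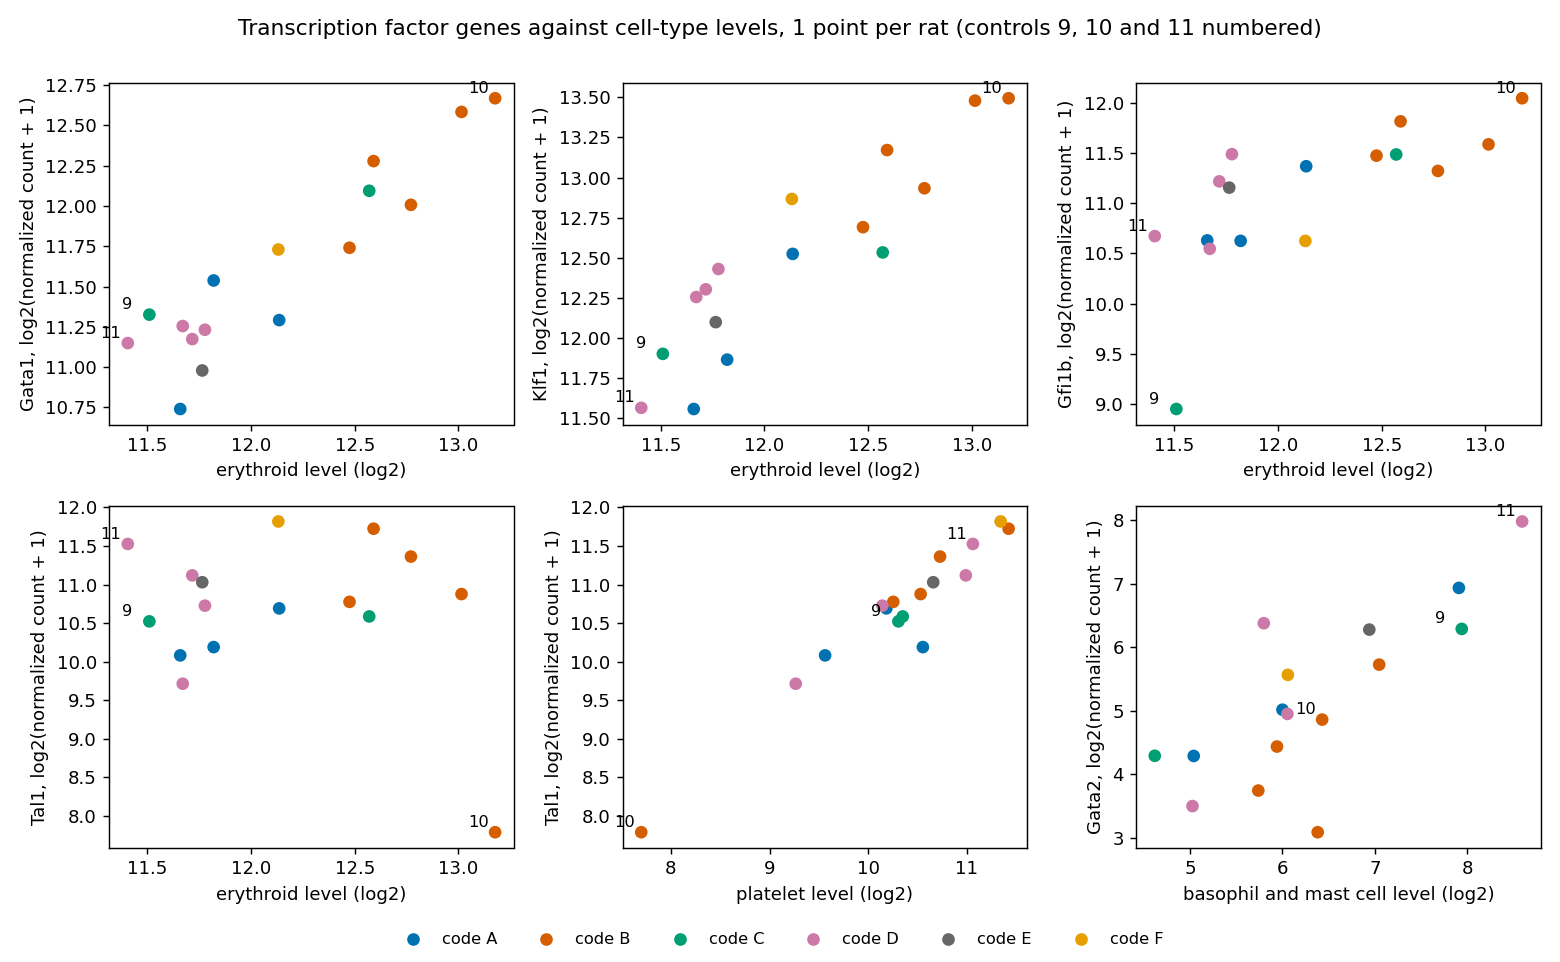
Log2 levels of Gata1, Klf1, Gfi1b and Tal1 against the erythroid level, of Tal1 against the platelet level and of Gata2 against the basophil and mast cell level, 1 point per rat coloured by file-name code, with controls 9, 10 and 11 numbered. Control 10 is at the upper right for Gata1, Klf1 and Gfi1b (erythroid level 13.18) and lowest for Tal1, where the platelet level is also lowest (7.70).

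With both levels in 1 model, Gata1, Klf1, Nfe2 and Zfpm1 were called on the erythroid level and Tal1 on the platelet level. On the erythroid level at a fixed platelet level the slopes were 0.96 ± 0.13 for Klf1 (SE; edgeR adjusted p = 0.00034), 0.92 ± 0.11 for Gata1 (adjusted p = 0.00027), 0.74 ± 0.14 for Nfe2 (adjusted p = 0.0034) and 0.67 ± 0.18 for Zfpm1 (adjusted p = 0.044), 4 of 8 members against 5.41% of all genes. Gfi1b had 0.77 ± 0.24 (adjusted p = 0.093). On the platelet level at a fixed erythroid level Tal1 had 1.02 ± 0.09 (adjusted p = 5.4e-06) and was the 1 member called, against 3.17% of all genes. Zfpm1 lost its erythroid call in 11 of 16 fits without 1 library, namely without controls 1, 3, 4, 5, 6, 10, 12, 13, 14, 15 or 16, with slopes of 0.56 to 0.75 over all 16 fits and 0.56 (adjusted p = 0.22) without control 10. Gfi1b gained one without control 13 (0.87, adjusted p = 0.049) and by DESeq2 (adjusted p = 0.0091). With the code as a term all 4 joint erythroid calls were lost (adjusted p of 0.76 for Klf1, 0.96 for Gata1 and 1 for Nfe2 and Zfpm1), and Tal1 kept its call.

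Gata2, the progenitor, mast cell and basophil factor, was the member called on the basophil and mast cell level. This level was the mean log2 level of 11 genes such as Cpa3, a mast cell protease, Hdc, the histamine-forming enzyme, and Ms4a2, a chain of the IgE receptor. The slope of Gata2 was 0.92 ± 0.17 (SE; edgeR adjusted p = 0.022), and it was 1 of 8 members called, against 0.239% of all genes. Its correlation with that level was r = 0.77 (rho = 0.69; permutation p = 0.00051 and 0.0041), which did not pass over all genes (adjusted p = 0.16 and 0.19), and r was 0.85 within codes and 0.64 without controls 11 and 9. Control 11 had the highest value of 6 of the 11 list genes, including 4412 normalized counts of Cpa3 against 8.23 in control 3. Of the others, Csf1 was highest in control 1, Il3ra in control 8 and Ccr3 in control 9. Mcpt8 and Mcpt8l2 were highest in control 15, and Mcpt8 had 18.7 normalized counts in control 11 beside a mean of 25.9. The edgeR call was lost without control 11 (0.79, adjusted p = 0.17), control 1 (0.91, adjusted p = 0.059) or control 3 (0.93, adjusted p = 0.058), and with the code as a term (0.90, adjusted p = 0.067).

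The log2 ratios of Gata2 to the other members were tested against the same level, likewise after the slopes were seen. The slope of Gata2 exceeded that of Lmo2 by 1.09 (permutation p = 0.00023), of Gfi1b by 1.09 (p = 0.0015), of Klf1 by 1.02 (p = 0.0042), of Gata1 by 1.00 (p = 0.0045), of Zfpm1 by 0.89 (p = 0.0043), of Nfe2 by 0.88 (p = 0.0074) and of Tal1 by 0.71 (p = 0.023), unadjusted over 7 comparisons. Without control 11 these differences ran from 0.66 for Tal1 to 0.97 for Gfi1b, and those from Nfe2 (p = 0.063) and Tal1 (p = 0.077) no longer passed. Progenitor genes were also present at low levels. Kit, the stem cell factor receptor that mast cells share with progenitors, ran from 2.48 to 315 normalized counts and was likewise highest in control 11, while Cd34 averaged 1.79 and was at 0 in 9 of 16 libraries. Their part in the Gata2 result was not tested.

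The white cell levels gave fewer calls among the members. On the lymphocyte level, the mean of 15 genes, Nfe2 fell with a slope of -0.99 ± 0.33 (SE; edgeR adjusted p = 0.032), 1 of 8 members against 13.2% of all genes called in that direction, a share near the background. Tal1 had -1.54 ± 0.60 (adjusted p = 0.064) and the other members had adjusted p of 0.21 or more. The Nfe2 call was lost without control 2 (-0.98, adjusted p = 0.052), 3 (-0.87, 0.085), 7 (-0.91, 0.068), 8 (-0.78, 0.27) or 12 (-0.94, 0.062), and Tal1 gained one without control 10 (-1.35, adjusted p = 0.018) or 16 (-1.62, adjusted p = 0.033). On the myeloid level, the mean of 17 neutrophil and monocyte genes, 0 of 8 members were called by edgeR (2, Gata2 and Tal1, at an unadjusted p under 0.05, and 1, Gata2, called by DESeq2), against 23.7% of all genes called in either direction. Gata2 had 0.83 ± 0.32 (adjusted p = 0.065) and was called without control 7 (0.92, adjusted p = 0.033). The myeloid and lymphocyte levels opposed each other across rats (r = -0.85), so their slopes are not separate evidence.

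The 3 file-name codes with at least 3 libraries were compared in 1 edgeR fit. Gata1 was lower in code D than in code B, with all 4 code D rats at 2270 to 2443 normalized counts and all 5 code B rats at 3420 to 6504.3, a log2 difference of -1.08 ± 0.23 (SE; adjusted p = 0.036). The other Gata1 entry differed by -0.96 (adjusted p = 0.055). The values of Gata1, Klf1, Nfe2 and Zfpm1 did not overlap between codes B and D, as was the case for 5.96% of all 12952 genes. The log2 differences of Klf1 (-1.0 ± 0.27, adjusted p = 0.077), Nfe2 (-0.84 ± 0.23, adjusted p = 0.088) and Zfpm1 (-0.75 ± 0.29, adjusted p = 0.27) did not pass. Thus 1 of 8 members was called, against 2.26% of all genes lower in code D. Gfi1b (-0.62 ± 0.26), Lmo2 (-0.22 ± 0.21), Tal1 (-0.01 ± 0.57) and Gata2 (2.00 ± 0.87) overlapped between the codes and were not called.

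The Gata1 call between codes D and B rested on most of the libraries. It was lost without any one of controls 5, 7, 8, 10, 11, 12, 13 or 14 (log2 differences of -0.97 to -1.14, adjusted p of 0.052 to 0.14). Without control 4, edgeR called Gata1 (-1.20, adjusted p = 0.0086), Klf1 (-1.11, adjusted p = 0.033) and Nfe2 (-0.98, adjusted p = 0.017). Calls over all 12952 genes rose as well, from 298 to 705. Scaled by total count, the Gata1 difference was -0.53 (adjusted p = 0.18) where the median of all genes was 0.53. Between codes B and A, edgeR called 0 members and 0% of all genes (5 members and 1755 genes at an unadjusted p under 0.05), and DESeq2 called 3 members, Gata1, Klf1 and Nfe2, among 563 genes. Without control 4, edgeR called the same 3 members there, but calls over all 12952 genes also rose, from 0 to 506. The log2 differences were then 1.17 for Gata1, 1.24 for Klf1 and 1.15 for Nfe2, while with all libraries these were 1.06 ± 0.25, 1.13 ± 0.30 and 1.01 ± 0.26. Between codes D and A, 0 members and 0% of all genes were called by edgeR (0 members and 5.41% of genes at an unadjusted p under 0.05), and DESeq2 called 0 members among 14 genes. Code and rat cannot be told apart, since no rat was measured under more than 1 code. The labels give no experiment date, so a difference between codes may also be one between dates. In order of control number, code A, codes B with C, and codes D with E and F have the sizes of the paper's earliest control groups in date order. Whether they are those groups was not tested.

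Between members, Gata1 and Klf1 had r = 0.88 across the 16 rats (rho = 0.86; permutation p = 1e-05 and 3e-05, adjusted 0.00078 and 0.0024 over all genes with Gata1), 0.72 within codes and 0.79 without controls 10 and 5. Nfe2 had r = 0.85 with Klf1 (rho = 0.80; permutation p = 2e-05 and 0.00035, adjusted 0.0019 and 0.016), 0.66 within codes and 0.79 without controls 10 and 5. Tal1 had r of -0.01 with Nfe2 (rho = 0.36; permutation p = 0.97 and 0.18, adjusted 0.98 and 0.42 over all genes with Tal1), and this value ran from -0.21 to 0.59 as 1 library was left out in turn. Without controls 10 and 16, the farthest for Tal1, it was 0.71, and without controls 8 and 10, the farthest for Nfe2, it was 0.47. Lmo2 and Gata2 had r = -0.49 (rho = -0.44; permutation p = 0.056 and 0.089, adjusted 0.74 and 0.55 over all genes with Lmo2), and r was -0.70 within codes. These are 4 of the 28 pairs of members, and both genes of a pair were divided by the same size factors.

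For each member the 3 genes of most similar log2 level were sought among 8361 genes with a mean of at least 100 normalized counts, as a description over 16 rats that share library and depth. Gata1 was nearest to Rab43 (r = 0.97), Tmem134 (0.96) and Timm17b (0.96), and Klf1 to Abhd4 (0.95), Cnppd1 (0.95) and Lyl1 (0.95), a helix-loop-helix relative of Tal1. Tal1 was nearest to Sept5 (0.96), Gnaq (0.96), a G protein subunit, and Mb21d2 (0.96). Nfe2 was nearest to Pet100 (0.92), Psmd13 (0.92) and Chmp2b (0.92), and Zfpm1 to Sidt2 (0.96), Cux1 (0.96) and Ube3b (0.94). Gfi1b was nearest to Kif18b (0.93), Txnrd2 (0.92) and Gypc (0.92), the glycophorin C gene. Lmo2 was nearest to Clec4a3 (0.92), Cd300le-ps1 (0.87) and Ly49si2 (0.86), and Gata2 to Hdc (0.85), Ms4a2 (0.82) and Psap (0.82), of which Hdc and Ms4a2 belong to its basophil and mast cell list.

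The other genes of the pathway were read from a list of 45 partners and related factors, of which 40 were tested. On the erythroid level 5 of 40 rose and 0 fell, with a median slope of -0.10 beside -0.08 for all genes and 6.16% of all genes called upward. They were Sox6, a repressor in red cell precursors (1.28 ± 0.11), E2f2, a cell cycle factor (0.79 ± 0.13), Lyl1 (0.74 ± 0.12), Foxo3 (0.73 ± 0.13) and Epor, the erythropoietin receptor (0.65 ± 0.17; all SE). On the platelet level 0 of 40 rose, where 3.28% of all genes did, and 2 fell, where 0.625% did. These were Myb (-0.73 ± 0.20) and Tcf12 (-0.39 ± 0.10), both better known from progenitors and lymphocytes. On the myeloid level 9 rose and 1 fell, a share near the 23.7% of all genes called there. The largest slopes were those of Nfe2l2 (0.91 ± 0.07), a relative of Nfe2, and Spi1 (0.89 ± 0.08), the myeloid factor PU.1. The slopes of the small Maf partners of Nfe2 were called there too, Maff (0.67 ± 0.06), Mafg (0.44 ± 0.07) and Mafk (0.42 ± 0.09). On the lymphocyte level 4 rose and 8 fell, likewise near the 28.3% of all genes called in either direction, and on the basophil and mast cell level edgeR called 0 of 40 (8 at an unadjusted p under 0.05, and 0 by DESeq2).

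Among 40 known targets of the members, 17 were tested that no level already used. On the erythroid level 9 of the 17 rose and 0 fell, with a median slope of 0.70 beside -0.08 for all genes and 6.16% of all genes called upward. The most abundant of them were Bpgm, the red cell enzyme of 2,3-bisphosphoglycerate (0.77 ± 0.15), Cd36, a scavenger receptor (0.96 ± 0.14), Bcl2l1, a survival gene (0.71 ± 0.11), and Urod, a heme synthesis enzyme (0.93 ± 0.10; all SE). The beta globin gene Hbb had 0.70 ± 0.35, and the alpha globin genes Hba2 and Hba-a2 had 0.32 ± 0.44 and 0.29 ± 0.35. None of these was called, and globin RNA had been depleted before sequencing. Alpha globin copies are nearly identical and may share reads. E2f2 and Epor stand in both lists. On the platelet level 0 of the 17 were called by edgeR (6 at an unadjusted p under 0.05, and 0 by DESeq2), with a median slope of -0.10. Most platelet targets of the list were left out there, because the level uses them.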

How the data were processed

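Per the study's methods, whole blood RNA of 16 rats was depleted of globin RNA, prepared as stranded poly(A) libraries and sequenced as paired ends. The submitters' processing notes name CASAVA 1.8.2, Bowtie 0.12.9, RSEM 1.2.0 and the rn5 build, and reads were assigned to Ensembl transcripts. The deposited values are estimated counts per gene, not normalized by the authors, of which 19.3% to 27.1% were not whole, and they were rounded here. The study's replacement of outlying values was not applied.

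Normalized counts are counts divided by median-of-ratios size factors (0.642 to 1.46) over the 18031 genes listed in all files, and 3 counts correspond to 2.06 to 4.67 normalized counts. edgeR 4.0.16 (R 4.3.3) quasi-likelihood fits tested 12952 genes past filterByExpr over codes A, B and D, with Benjamini-Hochberg adjustment over all of them and a threshold of 0.05. A level is the mean log2(normalized count + 1) over list genes with a mean of at least 10. Correlations used 100000 permutations, two-sided, with a pseudocount of 1. The fits were tested on simulated counts. Alternatives were DESeq2 1.42.0, other scalings and filters, a code term and single libraries left out. The levels kept the median-of-ratios size factors in all of them, so the other scalings changed the genes and not the levels. The single-group filter and the sum of both Gata1 entries were added after seeing the data. The members and lists were chosen with earlier results of these data known. Named genes were all members, the 3 most similar genes of each, called partners (at most 4 of largest slope) and the most abundant targets. Outside that rule Epor, the small Maf genes, Kit, Cd34 and the other progenitor genes, Hbb, Hba2 and Hba-a2 were named after their values were seen. The same holds for Mcpt8, Mcpt8l2, Csf1, Ccr3 and Il3ra. No library pair of 120 was alike within sampling noise. Intervals of counts and floors cover counting error only.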

Additional observations from a re-analysis of the deposited data

Results flagged for a closer look

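A signal was present in an entry that the comparisons do not use. The second Gata1 entry averaged 1843 normalized counts over the 16 libraries, above the 2.06 to 4.67 normalized counts that 3 reads give. With both entries summed, every member call of the slope fits and of the code comparisons kept its side of the threshold. Each member was also examined for a single distant rat within codes B (5 rats) and D (4 rats), the codes that Dixon's criterion covers. None of these 16 sets passed it on normalized counts, where chance alone flags about 1 in 20 sets. Tal1 in control 10 was the lowest of code B all the same, at 219.5 normalized counts beside 1751 to 3383 in the other 4 rats. The criterion was not applied to log2 levels, on which such a low value lies relatively farther from the others. Control 9, the lowest for Gfi1b, is in code C, which has too few rats for the criterion.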

How the results depend on the processing

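The number of members called was 4 of 8 on the erythroid level, 1 on the platelet level, 0 on the myeloid level, 1 on the lymphocyte level, 1 on the basophil and mast cell level, 5 over both levels together, and 0, 0 and 1 between codes A and B, A and D, and B and D. Total count scaling gave 0 between B and D, 0 on the lymphocyte level, 3 on the erythroid level (Gata1, Klf1 and, below 0, Gata2) and 4 over both levels. DESeq2's Wald test gave 3 between A and B, 3 between B and D, 6 on the erythroid level (adding Gfi1b and Gata2, below 0), 6 over both levels, 1 on the myeloid and 3 on the lymphocyte level. The single-group filter, added after seeing the data, gave 5 on the erythroid level (adding Gfi1b), 2 on the lymphocyte level and 0 on the basophil and mast cell level, because it removed Gata2 from testing. With the code as a term the counts were 0 (erythroid), 0 (lymphocyte), 0 (basophil and mast cell) and 1 (both levels). Without the 2 farthest libraries they were 2 (erythroid), 0 (lymphocyte), 0 (basophil and mast cell) and 3 (both levels). Z-scored levels gave 1 on the myeloid level. The causes were not tested. With single libraries left out the counts ran from 3 to 5 (erythroid), 1 to 1 (platelet), 0 to 1 (myeloid), 0 to 2 (lymphocyte), 0 to 1 (basophil and mast cell), 4 to 5 (both levels), 0 to 3 (A and B), 0 to 0 (A and D) and 0 to 3 (B and D). None of the called slopes, nor that of Gfi1b on the erythroid level, changed sign, while the uncalled slope of Tal1 on the erythroid level did. Tal1 kept its platelet call in all 26 alternatives (0.89 to 1.05), and the calls of Gata1 and Klf1 on the erythroid level were lost under the code term alone.

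Over all genes, 807 calls on the erythroid level became 3187 by total count, 134 without the 2 farthest libraries, 0 with the code as a term and 429 to 880 without single libraries. On the platelet level 506 became 226 by total count, 314 with the code, 142 without the 2 farthest and 1008 by DESeq2. On the myeloid level 3070 became 1044 by total count. On the lymphocyte level 3668 became 1964 without the 2 farthest. On the basophil and mast cell level 31 became 396 by DESeq2, 53 without a filter, 86 with z-scored levels, 12 with the single-group filter and 14 without the 2 farthest. In the joint model 713 erythroid calls became 4112 by total count, 351 without the 2 farthest and 0 with the code (424 at an unadjusted p under 0.05), and 517 platelet calls became 283, 120 and 235, or 916 by DESeq2. Between B and D 298 became 6 by total count and 742 by DESeq2, and 2 to 705 without single libraries. Between A and B 0 became 563 by DESeq2 and 0 to 506 without single libraries. By total count the positive share of calls moved from 84.0% to 94.7% (platelet), from 60.6% to 88.2% (myeloid) and from 53.4% to 80.0% (lymphocyte). Depth limits Gata2 most, with as few as 6 reads in a library.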
